A study of Homo sapiens with 8 samples.

Results

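The genes described here are 9 noncoding hosts of small nucleolar RNAs (snoRNAs): GAS5, SNHG1, SNHG3, SNHG5, SNHG7, SNHG8, SNHG12, SNHG15 and SNHG16. They were found on the arrays by RefSeq accession, and they took 27 of the 50599 probes and 9 of the 20503 genes that could be named. SNHG5 had 18 probes, SNHG7 had 2 and each other gene had 1. Total RNA of epithelial ovarian cancer cells was labelled with Cy3 and hybridized to 8 single-colour Agilent arrays, in 4 groups of 2. The lines were MDAH and SKOV3. In each line 2 arrays held controls and 2 held cells silenced for SFPQ, an RNA-binding splicing factor, 1 under sh-SFPQ#2 and 1 under sh-SFPQ#3. The labels name both controls of a line as carrying the control shRNA, whereas the supplementary methods list a parental sample and an sh-ctrl sample, so that "control" here means only not silenced. The study could not keep stable silenced clones, because loss of SFPQ killed the cells, and the time from transduction to RNA extraction is not given in the sources used here. Nothing says that the 2 arrays of a group came from separate cultures, so that the p-values measure only the spread between these arrays. The 2 silenced arrays of a line also differ in their shRNA.

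A snoRNA host gene is transcribed and spliced like any other long RNA, and the snoRNAs are cut out of its introns. Box C/D snoRNAs (SNORD genes) guide the methylation of ribosomal RNA, and box H/ACA snoRNAs (SNORA genes) guide its pseudouridylation. The spliced RNA of a noncoding host has no long reading frame, and many such RNAs are removed by nonsense-mediated decay while they are being translated. Many hosts also begin with a C followed by a run of C and T, the 5′ terminal oligopyrimidine (TOP) start that they share with ribosomal protein genes and that ties their RNA to growth signals.

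RefSeq promoter windows (GRCh38.p14) were found for 8 of the 9 hosts, all but SNHG15. The bases around the annotated start are shown for the 5 hosts with a run of at least 5 C or T over the start base. GAS5 is shown beside them as a host without such a run in its window. SNHG3 and SNHG16 had no such run either and are not shown. Each sequence runs 5′ to 3′ on the strand that reads like the RNA, with 20 bases before the start and 20 from it on. Capitals mark the run.
SNHG1: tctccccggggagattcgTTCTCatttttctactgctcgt
SNHG5: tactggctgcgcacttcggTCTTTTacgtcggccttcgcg
SNHG7: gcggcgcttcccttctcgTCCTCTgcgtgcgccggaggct
SNHG8: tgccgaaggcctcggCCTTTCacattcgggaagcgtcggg
SNHG12: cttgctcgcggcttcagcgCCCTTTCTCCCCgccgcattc
GAS5: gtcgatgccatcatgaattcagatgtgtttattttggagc
These windows lie at chr11:62855866-62855905 (minus strand) for SNHG1, chr6:85678714-85678753 (minus) for SNHG5 and chr9:136728165-136728204 (minus) for SNHG7. They lie at chr4:118278742-118278781 (plus) for SNHG8, chr1:28581854-28581893 (minus) for SNHG12 and chr1:173869026-173869065 (minus) for GAS5. The run was searched only on the strand that reads like the RNA. It was 5 to 12 bases long in the 5 hosts, and 9.6% of the 35116 promoters in the same table had a run of at least 5. Bases before the start count in the run, so that a run need not be a TOP start as described above. In SNHG8 the start base is the last base of the run. For SNHG12 the gene as a whole reaches further upstream in RefSeq than the start of this window, so that its run does not lie at the outermost end of the gene. For GAS5 the window lies at the outermost end of the gene, and starts further inside that gene were not searched. A match describes the annotated start only, and no match says only that these letters are not in this window.

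Every one of the 27 probes was well above background on all 8 arrays and none was saturated. Values below are log2 signals minus the 75th percentile of their array, so that 0 is the level of the probe at that percentile, and values of different probes are not compared with each other. The 8 arrays shared 1 slide and 1 scan. Where an array lay on it cannot be told apart from its group. The 75th percentile signal was lowest, 244, on the MDAH sh-SFPQ#3 array and lay between 387 and 496 on the other arrays. Differences were tested with limma over the 29006 probes that both arrays of 1 or more groups found well above background, with Benjamini-Hochberg adjustment over all of them, and a probe passed at an adjusted p under 0.05.

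SFPQ itself was lower in all 4 silenced arrays. MDAH controls gave 3.64 and 3.91, sh-SFPQ#2 gave 2.45 and sh-SFPQ#3 gave 2.10, a change of -1.50 (adjusted p = 0.0300). Control values in SKOV3 cells were 4.84 and 4.66, against 3.01 with sh-SFPQ#2 and 2.48 with sh-SFPQ#3, a change of -2.01 (adjusted p = 0.0220). Both calls rest on the pooled spread: with each line fitted alone the adjusted p was 0.0519 in MDAH and 0.125 in SKOV3 cells. The SFPQ call in MDAH cells was lost without MDAH control 1 or 2 (adjusted p = 0.184 and 0.191), the MDAH sh-SFPQ#3 array (0.118) or SKOV3 control 1 or 2 (both 0.0599). The SFPQ call in SKOV3 cells was lost without MDAH control 1 or 2 (both 0.0727), SKOV3 control 1 or 2 (0.0968 and 0.0682) or the SKOV3 sh-SFPQ#3 array (0.0642).

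Markers of the cells were checked next. Of 10 epithelial and ovarian cancer markers 6 were well above background on all 8 arrays, among them KRT18, KRT8, PAX8 and EPCAM, and MSLN was on none. Their summed level, as a multiple of the 75th percentile, was 356 to 463 in MDAH controls and 453 to 454 in silenced MDAH cells, 272 to 315 in SKOV3 controls and 279 to 298 in silenced SKOV3 cells. The 9 of these markers that were tested had a median change of -0.09 in MDAH and 0.50 in SKOV3 cells. Of the 9, 3 were positive in MDAH and 7 in SKOV3 cells, against 56.2% and 47.3% of all probes. None passed in either line, and 1 passed as higher in the average of both lines. Of 8 markers of other cell types 2 (CD14 and PTPRC) were well above background on all arrays and 2 (MYOD1 and CD3E) on none. The summed level of this list was 1.04 to 1.06 in MDAH controls, 0.898 to 0.966 in silenced MDAH cells, 0.584 to 0.719 in SKOV3 controls and 0.604 to 0.607 in silenced SKOV3 cells. ALB, a liver marker on that list, was lower in silenced MDAH cells (adjusted p = 0.0170) and was well above background on only 2 arrays. The part of these markers in the results on the hosts was not tested.

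The arrays were made to look for pathways behind the death of SFPQ-silenced cells. No probe of the 9 hosts passed the test in MDAH cells, where 2.69% of all probes passed, or in SKOV3 cells, where 1.3% did. In MDAH cells 25 of the 27 probes were on the positive side, against 56.2% of all probes. Their median change was 0.45 against 0.07 for all probes tested. In SKOV3 cells 20 of the 27 were positive, against 47.3% of all probes, with a median of 0.22 against -0.03. Since 18 of the probes belong to SNHG5, the counts by gene were smaller. At the brightest probe of each gene 7 of 9 were positive in MDAH cells (median 0.25) and 4 of 9 in SKOV3 cells (median -0.01). The 4 of 9 lay near the 47.3% of all probes. An unadjusted p under 0.05 was reached by 15 of the 27 probes in MDAH cells, against 21.5% of all probes. In SKOV3 cells it was reached by 5, against 18.6%. SNHG5 probes made up 12 of the 15 and 3 of the 5. With quantile normalization the positive probes were 22 of 27 (81.5%) in MDAH cells in place of 92.6%, and 24 of 27 (88.9%) in SKOV3 cells in place of 74.1%. The share of all probes that were positive in that setting is not given here. A change in every cell and a change in part of the cells cannot be told apart in such samples.

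**Figure D1:**
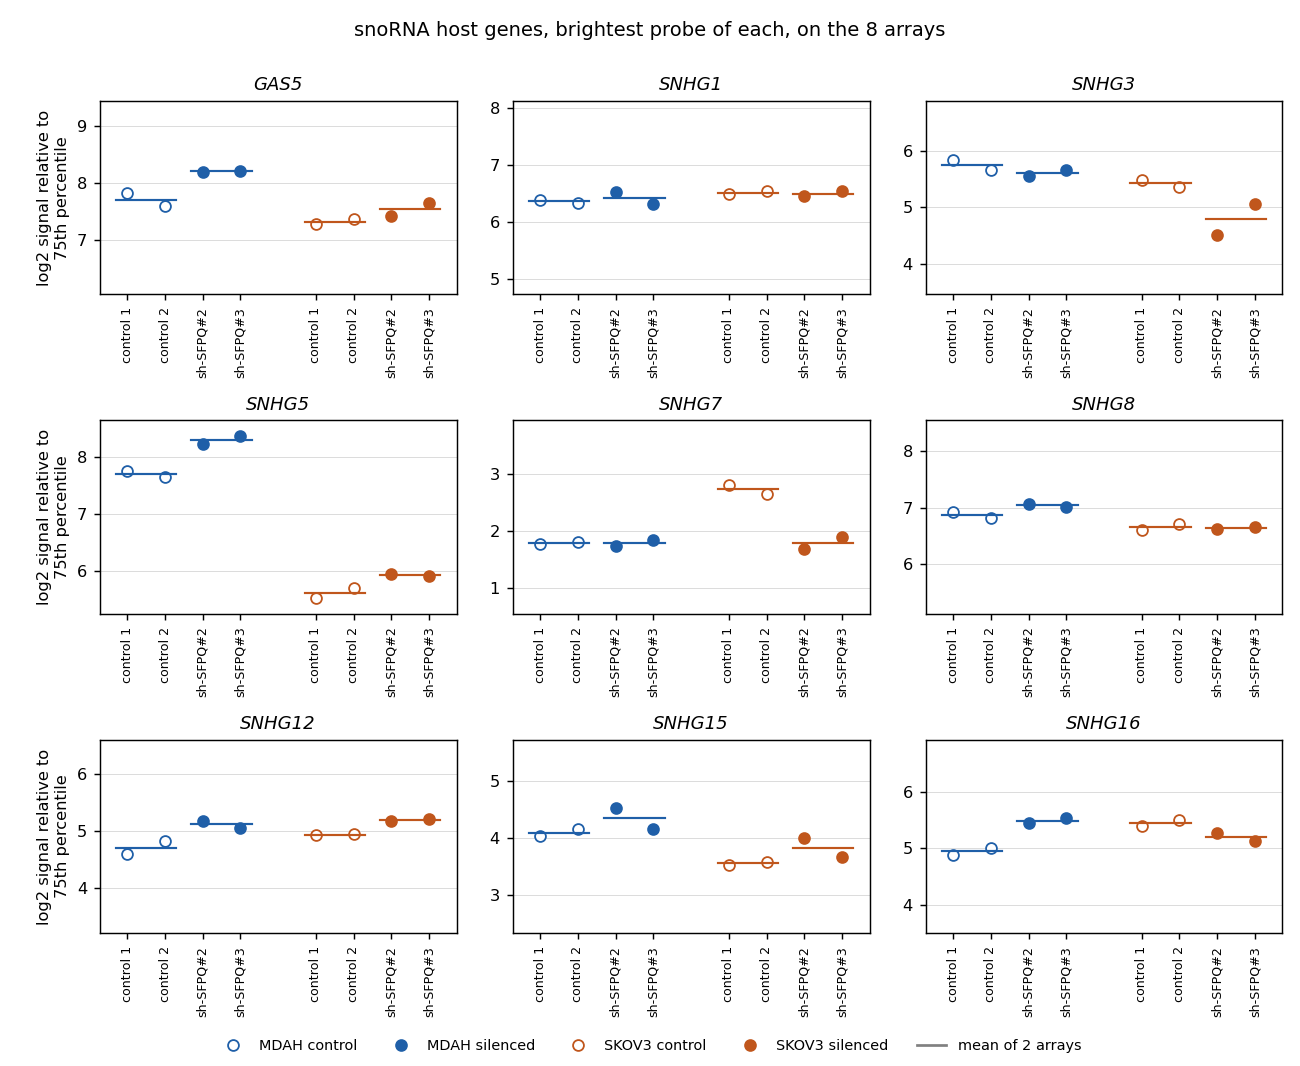
Level of the brightest probe of each host gene on the 8 arrays, as log2 signal minus the 75th percentile of that array (vertical axes, each spanning the same number of log2 units). Open points are controls, filled points silenced cells and bars the mean of 2 arrays; SNHG5 stands about 2 units lower in SKOV3 than in MDAH cells, and SNHG7 lies at 2.80 and 2.65 in SKOV3 controls and at 1.68 and 1.89 in silenced SKOV3 cells, a change that did not pass the test.

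SNHG5 carries SNORD50A and SNORD50B in its introns and was the host measured most often. At its brightest probe (NR_003038) it was 7.76 and 7.64 in MDAH controls, 8.22 under sh-SFPQ#2 and 8.37 under sh-SFPQ#3. SKOV3 cells gave 5.51 and 5.69 as controls, 5.94 under sh-SFPQ#2 and 5.90 under sh-SFPQ#3. Both silenced arrays lay above both controls in each line. The change was 0.60 in MDAH cells (1.51-fold, SE 0.16, adjusted p = 0.107) and 0.32 in SKOV3 cells (1.25-fold, adjusted p = 0.341). The order of the group means was silenced MDAH, control MDAH, silenced SKOV3 and control SKOV3 cells, and silenced and control cells of a line did not differ past the test.

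The 18 SNHG5 probes target 1 RNA and share each array, so that they are not replicates of a condition. Their changes had a median of 0.48 in MDAH cells (range 0.12 to 0.65). In SKOV3 cells the median was 0.27 (range -0.09 to 0.43). All 18 were positive in MDAH and 16 in SKOV3 cells, against 56.2% and 47.3% of all probes. In MDAH cells 16 of the 18 probes had both silenced arrays above both controls, where 31.5% of all probes did. In SKOV3 cells 12 of the 18 did, where 25.7% of all probes did, and these 12 were also higher in MDAH cells. With quantile normalization the medians were 0.29 and 0.40, so that the sign held in both lines and the order of the lines turned.

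At 2 of the 18 SNHG5 probes the silenced and control arrays overlapped in both lines, and these were singled out after their values had been seen. Probe A_19_P00319019 was 7.25 and 7.19 in MDAH controls, 7.68 under sh-SFPQ#2 and 6.99 under sh-SFPQ#3, and 4.93 and 5.17 in SKOV3 controls, 5.28 under sh-SFPQ#2 and 4.64 under sh-SFPQ#3. Probe A_19_P00321511 was 6.68 and 6.89 in MDAH controls, 6.69 under sh-SFPQ#2 and 7.44 under sh-SFPQ#3, and 4.23 and 4.48 in SKOV3 controls, 4.13 under sh-SFPQ#2 and 4.45 under sh-SFPQ#3. The silenced arrays thus lay on both sides of a control at each of them. The sequences and places of these probes on the SNHG5 RNA were not used here.

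**Figure D2:**
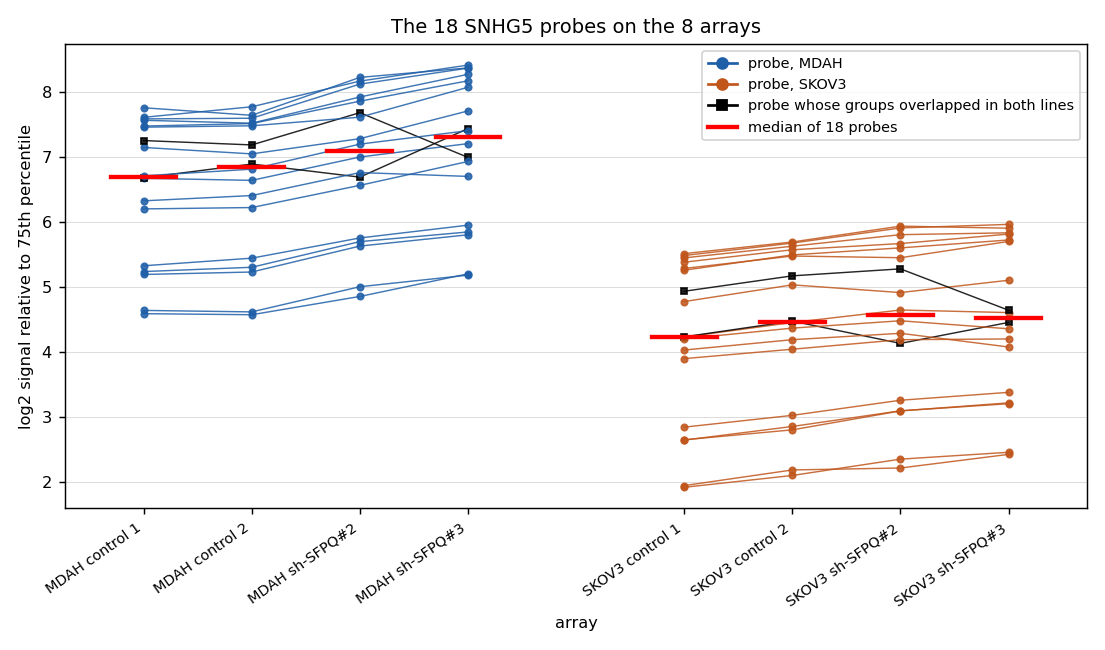
The 18 SNHG5 probes, each joined by a line over the 4 arrays of a line of cells, as log2 signal relative to the 75th percentile. Red bars are the median of the 18 probes (6.69, 6.85, 7.10 and 7.31 in MDAH cells, 4.23, 4.46, 4.56 and 4.53 in SKOV3 cells), black squares the 2 probes whose groups overlapped in both lines.

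GAS5, named for its accumulation in growth-arrested cells, holds a series of box C/D snoRNAs. Its probe (NR_002578) was 7.82 and 7.61 in MDAH controls and 8.21 with either shRNA. The SKOV3 controls gave 7.28 and 7.37, sh-SFPQ#2 gave 7.43 and sh-SFPQ#3 gave 7.65. Silenced arrays lay above controls in both lines, by 0.49 in MDAH cells (1.41-fold, adjusted p = 0.162) and by 0.22 in SKOV3 cells (adjusted p = 0.520), and neither passed. Groups separated upwards at 31.5% of all probes in MDAH and at 25.7% in SKOV3 cells. With quantile normalization the changes were 0.20 and 0.44, so that the larger of the 2 was then in SKOV3 cells.

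SNHG12, which carries SNORA16A, SNORA44, SNORA61 and SNORD99, was 4.59 and 4.82 in MDAH controls and 5.17 and 5.06 in silenced MDAH cells. The SKOV3 controls gave 4.93 and 4.94 and the silenced SKOV3 arrays 5.18 and 5.21. The changes of 0.41 and 0.26 had the same sign in both lines and did not pass (adjusted p = 0.209 and 0.422). SNHG15, host of SNORA9, was 4.03 and 4.16 in MDAH controls, 4.53 under sh-SFPQ#2 and 4.16 under sh-SFPQ#3. Control values in SKOV3 cells were 3.52 and 3.58, against 4.001 with sh-SFPQ#2 and 3.66 with sh-SFPQ#3. In both lines the array with sh-SFPQ#2 was the higher of the silenced pair, and the changes of 0.25 and 0.28 did not pass (adjusted p = 0.511 and 0.496).

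SNHG16, host of SNORD1A, SNORD1B and SNORD1C, had changes of opposite sign in the lines, neither of which passed. It was 4.89 and 5.01 in MDAH controls, 5.44 under sh-SFPQ#2 and 5.53 under sh-SFPQ#3. SKOV3 cells gave 5.39 and 5.50 as controls, 5.27 under sh-SFPQ#2 and 5.13 under sh-SFPQ#3. The groups did not overlap in either line. Groups separated upwards at 31.5% of all probes in MDAH cells and downwards at 30.6% in SKOV3 cells. The change was 0.54 in MDAH cells (1.45-fold, adjusted p = 0.125) and -0.24 in SKOV3 cells (adjusted p = 0.445). The difference between these changes was 0.78 and did not pass (adjusted p = 0.251).

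SNHG7, host of SNORA17A and SNORA17B, was measured by 2 probes that named different transcripts. The probe for NR_024542 was 1.77 and 1.81 in MDAH controls and 1.73 and 1.83 in silenced MDAH cells, with no separation of the groups. The SKOV3 controls gave 2.80 and 2.65, sh-SFPQ#2 gave 1.68 and sh-SFPQ#3 gave 1.89. This was the lowest adjusted p of any host in either line, with a change of -0.94 (0.521-fold, SE 0.16, 95% interval -1.33 to -0.56, adjusted p = 0.0536). Whether it passed depended on the processing: the adjusted p was 0.0461 with arrays centred on their median, 0.0204 with a trend in the spread and 0.178 with SKOV3 fitted alone. The probe for NR_003672 was 0.90 and 0.80 in SKOV3 controls and 0.86 in both silenced SKOV3 arrays, a change of 0.02 (95% interval -0.36 to 0.39), so that the 2 SNHG7 probes gave different values in the same cells. In MDAH cells this probe was 0.01 and 0.13 in the controls and 0.12 and 0.29 in silenced cells. The change of the NR_024542 probe differed between the lines by 0.93 and did not pass (adjusted p = 0.203).

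SNHG3, host of SNORA73A and SNORA73B, the U17 snoRNAs that act in ribosomal RNA processing, was the only host at its brightest probe with both silenced arrays below both controls in each line. It was 5.83 and 5.66 in MDAH controls and 5.55 and 5.66 in silenced MDAH cells, the closest values differing only beyond the second decimal. Control values in SKOV3 cells were 5.48 and 5.36, against 4.51 under sh-SFPQ#2 and 5.07 under sh-SFPQ#3. The change was -0.15 in MDAH cells (adjusted p = 0.738) and -0.64 in SKOV3 cells (0.644-fold, adjusted p = 0.196). Groups separated downwards at 23.4% of all probes in MDAH and at 30.6% in SKOV3 cells.

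SNHG1, which carries 8 box C/D snoRNAs, was 6.39 and 6.33 in MDAH controls and 6.52 and 6.31 in silenced MDAH cells. SKOV3 values were 6.48 and 6.54 in controls, then 6.46 and 6.54 after silencing. Its changes were 0.06 in MDAH (95% interval -0.32 to 0.43) and -0.01 in SKOV3 cells (95% interval -0.39 to 0.36), and both changed sign with quantile normalization. SNHG8, host of SNORA24, was 6.92 and 6.81 in MDAH controls and 7.06 and 7.02 in silenced MDAH cells. The SKOV3 controls gave 6.60 and 6.71 and the silenced SKOV3 arrays 6.63 and 6.66. Its changes were 0.17 (95% interval -0.18 to 0.53) and -0.02 (95% interval -0.37 to 0.34), and both changed sign with quantile normalization.

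**Figure D3:**
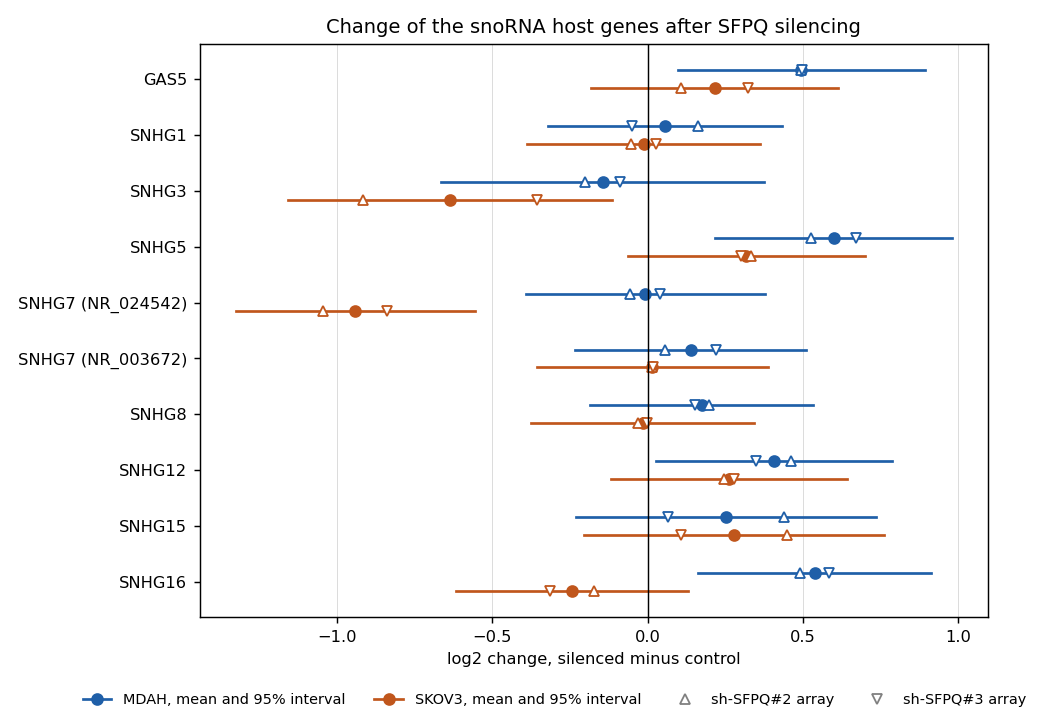
Log2 change from control to silenced cells (horizontal axis) for the brightest probe of each host gene and for the other SNHG7 probe, with the mean over 2 arrays and its 95% interval from limma. Triangles give the single silenced arrays against the mean of the controls; in SKOV3 cells the SNHG7 probe NR_024542 lies at -0.94, and GAS5, SNHG5, SNHG12, SNHG15 and the SNHG7 probe NR_003672 lie on the positive side in both lines.

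Taking the mean of both lines, no host probe passed, where 6.46% of all probes did. An unadjusted p under 0.05 was reached by 17 of the 27, against 24.9% of all probes. Of these 17, 13 were SNHG5 probes, which read 1 RNA. The average change was 0.46 at the brightest SNHG5 probe (adjusted p = 0.0635), 0.36 for GAS5 (adjusted p = 0.125), -0.39 for SNHG3 (adjusted p = 0.181) and -0.47 for SNHG7 at NR_024542 (adjusted p = 0.0595). The count of host probes that passed depended on the test. With a trend in the spread 8 of the 27 passed, with normexp background correction 8, and among probes well above background on all arrays 6. The share of all probes that passed in these settings is not given here, and 18 of the 27 probes belong to SNHG5. No host probe passed for a difference between the lines, where 0.145% of all probes did, and 2 of the 27 reached an unadjusted p under 0.05, against 13.9%.

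The hosts are bright, and the median change of all probes moved with brightness. In MDAH cells it was -0.02 among probes with a mean level below 0 and 0.26 among those above 6, and in SKOV3 cells it went from 0.02 to -0.22. Of the 27 host probes 11 had a mean level above 6 and 11 lay between 4 and 6. With quantile normalization the median of the brightest range was 0.01 in MDAH and -0.02 in SKOV3 cells. The part of brightness in the changes of the hosts was not tested. Centring each array on its median moved the median of all probes to 0.18 in MDAH cells (from 0.07) and to 0.14 between the control lines (from -0.01).

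**Figure D4:**
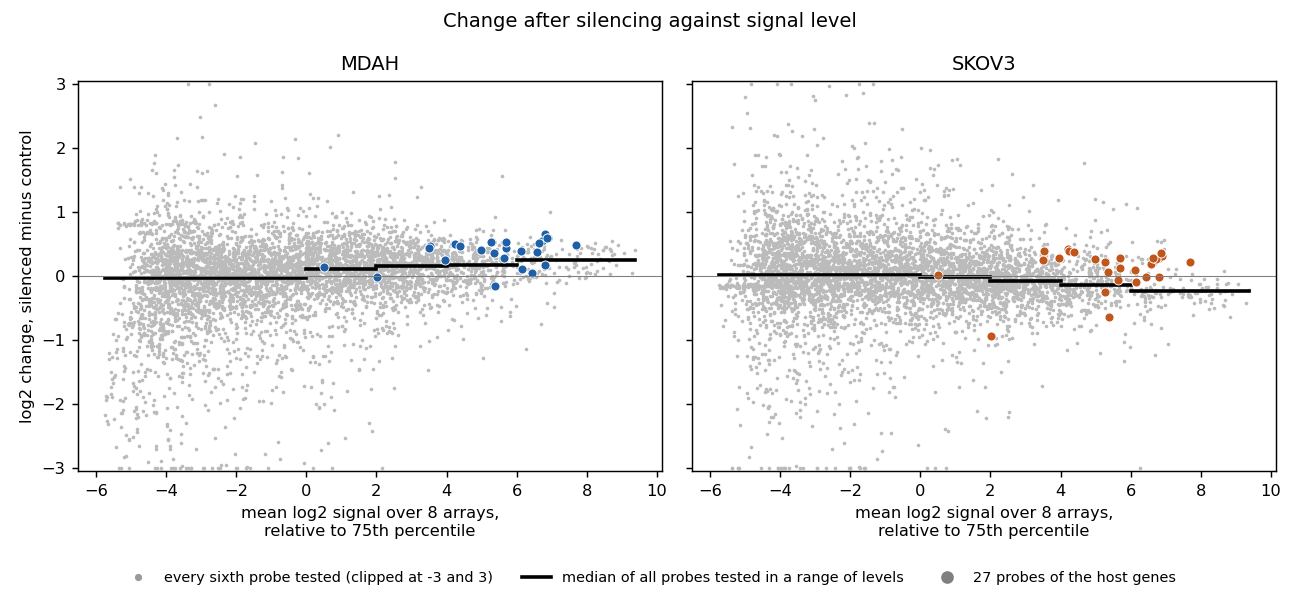
Log2 change after silencing (vertical axes) against the mean log2 signal over 8 arrays relative to the 75th percentile (horizontal axes), for MDAH and SKOV3 cells. Grey dots are a regular sample of all probes tested and black bars their median change within a range of levels. Coloured points are the 27 host probes, of which 22 lie above the bar of their range in MDAH cells and 24 in SKOV3 cells. Each bar is a median, so that as many probes of a range lie above it as below it. Of the 27 host probes 18 read the same SNHG5 RNA, so that the counts do not describe separate genes. Whether the hosts differ from equally bright probes was not tested.

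The arrays also compare the control cells of the lines, and here 3 of the 9 hosts had probes that passed. Of the 27 host probes 21 passed, where 51.8% of all probes did. All 18 SNHG5 probes were lower in SKOV3 than in MDAH cells, where 25.9% of all probes passed as lower. Both SNHG7 probes and SNHG16 were higher in SKOV3 cells, where 25.9% passed as higher. GAS5, SNHG1, SNHG3, SNHG8, SNHG12 and SNHG15 did not pass.

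The difference of SKOV3 from MDAH controls was -2.62 to -2.05 at the SNHG5 probes, with a median of -2.25, which is 0.21 of the MDAH level (adjusted p from 3.67e-05 to 0.00112). For each of the 18 probes every MDAH array, silenced or not, lay above every SKOV3 array, with a gap of at least 1.65. The share of all probes that separate the lines in this way is not given here, and the 18 probes read 1 RNA. The median over the 18 probes was -2.45 to -2.10 under the other settings and -2.33 to -2.17 with each array left out. At SNHG7 the difference was 0.93 for the NR_024542 probe (1.91-fold, SE 0.16, adjusted p = 0.00294) and 0.78 for the NR_003672 probe (1.72-fold, adjusted p = 0.00560).

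At SNHG16 the difference was 0.50 (1.41-fold, adjusted p = 0.0346), and this call was lost without any 1 of the 4 control arrays (adjusted p of 0.158 and 0.0833 without MDAH control 1 and 2, and 0.0975 and 0.163 without SKOV3 control 1 and 2). It was also lost with quantile normalization (0.29, adjusted p = 0.122) and without a filter on dim probes (adjusted p = 0.0674). The difference was -0.54 for SNHG15 (adjusted p = 0.0615) and -0.39 for GAS5 (adjusted p = 0.0917), and GAS5 passed in 2 of 10 other settings, normexp (adjusted p = 0.0399) and a trend in the spread (adjusted p = 0.0456). SNHG15 passed in 7 of 10 other settings (adjusted p from 0.00425 to 0.235 over the 10), among them quantile normalization (-0.75, adjusted p = 0.0160) and the replicate numbers as a block (adjusted p = 0.0318). The differences of SNHG3, SNHG8, SNHG12 and SNHG1 were -0.32, -0.21, 0.23 and 0.15, with adjusted p of 0.259, 0.287, 0.277 and 0.460.

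The snoRNAs inside the hosts were read by probes of their own. Of 34 snoRNA names searched, 30 had a probe, and 31 such probes were tested. SNORA43 among these names was not found in RefSeq. In RefSeq (GRCh38.p14) the snoRNAs listed for these hosts lie inside them. The labelling kit primes from poly(A) tails, which mature snoRNAs lack, and which RNA these probes read was not tested. After silencing none of the 31 passed in either line, against the shares of all probes given above. At an unadjusted p under 0.05 there were 0 of the 30 snoRNAs in MDAH cells and 3 in SKOV3 cells. Their median change was 0.12 in MDAH and 0.02 in SKOV3 cells. Across both lines the highest average was 0.46 for SNORD76 (adjusted p = 0.0789) and the lowest -0.44 for SNORD74 (adjusted p = 0.206), both from GAS5.

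Between the control lines 9 of the 31 snoRNA probes passed, against 51.8% of all probes, with 8 higher and 1 lower in SKOV3 cells against 25.9% each way. All 8 snoRNA probes of SNHG1 had a positive difference and 5 passed as higher in SKOV3 cells, while the SNHG1 probe itself differed by 0.15. These were SNORD22 (1.05, adjusted p = 0.00440), SNORD27 (0.85, adjusted p = 0.00673), SNORD29 (0.93, adjusted p = 0.00894), SNORD30 (1.34, adjusted p = 0.00134) and SNORD31 (1.14, adjusted p = 0.00301). SNORD30, for example, was -0.69 and -0.45 in MDAH controls and 0.77 in both SKOV3 controls. It was -0.61 and -0.23 in silenced MDAH cells and 0.58 and 0.42 in silenced SKOV3 cells, so that the lines did not overlap. The share of all probes that separate the lines in this way is not given here either. Among the 193 snoRNA probes outside these hosts 15.5% passed as higher and 18.7% as lower.

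SNORD50B, in an intron of SNHG5, was -0.03 and 0.28 in MDAH controls and 0.79 and 0.81 in SKOV3 controls. It was thus higher in SKOV3 cells by 0.68 (adjusted p = 0.0177), the opposite direction to all 18 probes of its host. In SNHG12, SNORA44 was higher in SKOV3 cells by 1.22 (adjusted p = 0.0185) and SNORA61 by 0.84 (adjusted p = 0.00673), while SNORA16A differed by 0.06 and the host by 0.23. SNORD76 was lower in SKOV3 cells by a difference of -0.75 (adjusted p = 0.0111), the same sign as its host GAS5. SNORA17A and SNORA17B differed by -0.17 and -0.01 (adjusted p = 0.378 and 0.968), while both probes of their host SNHG7 were higher in SKOV3 cells. The difference between a host and its snoRNA was not tested. Of the 9 calls 4 were left without MDAH control 1 and 5 without SKOV3 control 1.

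**Figure D5:**
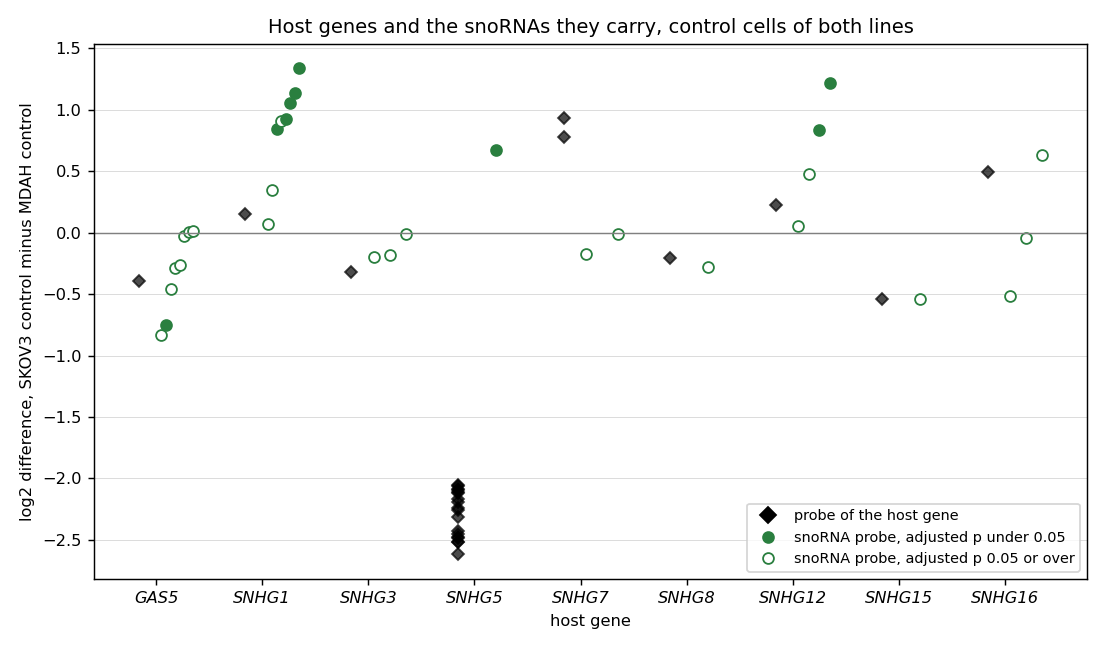
Log2 difference of SKOV3 controls from MDAH controls (vertical axis) for the probes of each host gene (black diamonds) and of the snoRNAs in its introns (circles, filled at an adjusted p under 0.05). The 18 SNHG5 diamonds lie between -2.62 and -2.05 while SNORD50B lies at 0.68, and the 8 snoRNA probes of SNHG1 lie above 0 beside a host at 0.15.

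Genes that work with the hosts were described by 5 lists, 91 genes in all, each gene at its brightest probe. None of the 91 passed in MDAH or SKOV3 cells, and 1 passed in the average of both lines. That gene was ZFAS1, another noncoding snoRNA host, which was 6.97 and 6.83 in MDAH controls and 7.63 and 7.59 in silenced MDAH cells. SKOV3 values were 6.02 and 6.05 in controls, then 6.29 and 6.32 after silencing. Its average change was 0.49 (adjusted p = 0.0458). The call was lost with quantile normalization and without a filter on dim probes, where no gene of the lists passed. With single arrays left out, a gene of its list passed only without the MDAH sh-SFPQ#2 array, so that leaving out any other array ended the call.

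The 10 other noncoding hosts that could be measured had a median change of 0.10 in MDAH and 0.02 in SKOV3 cells, with 5 and 6 of them positive. The 34 protein-coding hosts, many of them genes for ribosomal proteins and translation factors, had medians of 0.41 and -0.15, with 32 positive in MDAH cells and 5 in SKOV3 cells, against 56.2% and 47.3% of all probes. The brightest probes of the arrays had medians of the same signs, 0.26 and -0.22, and the part of brightness was not tested. Their highest average change was 0.50 for EIF4A2, a translation initiation helicase (adjusted p = 0.0571), and the lowest -0.47 for SF3B3, a splicing factor subunit (adjusted p = 0.0723). The 14 TOP genes outside the ribosome had medians of 0.46 and -0.09. Among them NAP1L1, a histone chaperone, averaged 0.44 (adjusted p = 0.150) and EEF1D, an elongation factor subunit, -0.26 (adjusted p = 0.202).

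The 20 genes of the snoRNA-protein complexes and their assembly had medians of 0.26 in MDAH and -0.15 in SKOV3 cells. RUVBL1, a helicase of the assembly machinery, averaged 0.32 (adjusted p = 0.148), and NUFIP1, a scaffold of box C/D assembly, -0.67 (adjusted p = 0.279). The 20 genes of nonsense-mediated decay had medians of 0.17 and -0.17. SMG8, a regulator of the kinase SMG1, averaged 0.36 (adjusted p = 0.118), and SMG6, the endonuclease of the pathway, -0.49 (adjusted p = 0.130). Between the control lines 13 of the 20 decay genes passed, against 51.8% of all probes, and 11 of them were higher in SKOV3 cells, against 25.9%. Over the 5 lists 37 of 91 genes passed between the lines, against the same 51.8%, and 23 to 24 did when either control of MDAH or of SKOV3 cells was left out.

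The mean of the brightest host probes, with the mean of each line subtracted, was -0.12 and -0.14 in MDAH controls, 0.15 and 0.12 in silenced MDAH cells, 0.02 and 0.06 in SKOV3 controls and -0.08 and -0.01 in silenced SKOV3 cells. Among 12355 genes well above background on all 8 arrays, the genes most like this pattern were ASNSD1 (r = 0.995), PSMC6 (r = 0.994), FNDC3B (r = 0.981), PRKAB1 (r = 0.980) and IMPA1 (r = 0.977). The r describes 8 arrays that share their scaling. Of the hosts themselves SNHG16 was nearest to the mean pattern (r = 0.905) and SNHG3 farthest from it (r = 0.148).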

How the data were processed

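RNA of 8 samples was measured on single-colour arrays. The authors deposited a linear intensity per spot, background-subtracted by Agilent Feature Extraction (version 11.5.1.1 per the file headers, 10.7.3.1 per the submitters' processing notes) and not normalized between arrays. The authors also deposited a log2 table of the same arrays, whose steps are not given in the sources used here: its values matched quantile-normalized log2 signals centred on each probe's median (correlation over 0.999 on each array, column medians from -0.0318 to 0.0128), and it served as an alternative. Per spot, control spots and 209 to 310 outlier spots per array were dropped, spots sharing a probe were averaged, and the 75th percentile of the array was subtracted. Of 50599 probes 28174 were named through unversioned RefSeq accessions. Probes that both arrays of 1 or more groups found well above background were tested in limma 3.58.1 (R 4.3.3; lmFit, eBayes) over all 4 groups, with 4 residual and 2.76 prior degrees of freedom and Benjamini-Hochberg adjustment over 29006 probes. The number of arrays limits the precision. On simulated data with 200 of 29006 probes changed by 2 on the log2 scale, the test found 65% for MDAH silencing, 69.5% for SKOV3 silencing and 85% for their average, with 6, 3 and 12 unchanged probes called. The largest host change after silencing was smaller, -0.94 at SNHG7 in SKOV3 cells. How often changes of the size seen in the hosts would be found was not simulated.

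The host genes, the lists and the tests were chosen with earlier results of these data known. The text names every host probe, SFPQ and the 5 genes most like the hosts' mean pattern. In each list other than the marker lists it names the genes that passed after silencing, or otherwise the highest and the lowest average. Replicate numbers name the shRNA in silenced cells, where deviations of the same number correlated at 0.35 between lines, and are only a number in controls (0.07). Alternatives were other scalings, normexp (offset 50, on median pixel intensities), filters, outlier spots, moderation, 1 probe per gene, the replicate block, each line alone, and each array left out. Array coordinates were not used, since the array design uses hg19 and the reference table GRCh38.p14.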

Additional observations from a re-analysis of the deposited data

How the results depend on the processing

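Only 2 arrays per group stood behind each call, and all host probes were well above background on every array. The differences of the brightest SNHG5 probe and of both SNHG7 probes between the control lines kept their sign and passed under every setting in which they were computed. In both lines 0 host probes passed after silencing. A trend in the spread gave 2 for MDAH and 1 for SKOV3 silencing, and 1 passed for SKOV3 silencing with arrays centred on their median, with normexp, among probes well above background on all arrays and with 1 probe per gene. In the average of both lines 0 passed, against 2 with arrays centred on their median, 8 with normexp, 6 among probes well above background on all arrays and 8 with a trend. The shares of all probes that passed in these settings are not given here, so that the counts show only how the host calls moved. Between the control lines 21 passed, and 4 did with 1 probe per gene, where SNHG5 counts once. The number of genes of the 5 lists that passed in MDAH cells was 3 with normexp and 4 with a trend. In the average it was 1, against 2 with arrays centred on their median, 0 with quantile normalization, 0 with the authors' values, 5 with normexp, 0 without a filter on dim probes, 3 among probes well above background on all arrays and 5 with a trend.

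The SFPQ change in MDAH cells did not pass with arrays centred on their median (-1.39), and neither change (-1.50 and -2.01) passed without a filter on dim probes or with each line alone. These signs turned: SNHG7 in MDAH cells (0.10 at NR_024542) and in SKOV3 cells (-0.019 at NR_003672) with arrays centred on their median, SNHG1 in MDAH cells (-0.13 with quantile normalization, -0.13 with the authors' values, -0.14 with normexp), in SKOV3 cells (0.19, 0.20 and 0.14) and between the control lines (-0.035, -0.042 and -0.015), and SNHG8 in MDAH cells (-0.0035, -0.0049 and -0.024) and in SKOV3 cells (0.20, 0.20 and 0.20). The median of the SNHG5 probes differed between the lines' changes by 0.24, against -0.13, -0.13 and -0.11 in these settings. The median of the host probes in SKOV3 cells was -0.013 with 1 probe per gene. The cause was not tested.

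With the replicate numbers as a block, the lists had 1 passing gene for MDAH silencing, 1 for SKOV3 silencing and 2 for the average, 22 host probes and 11 of their snoRNA probes passed between the control lines, and no host probe passed after silencing. Among named host probes the block changed only the call of SNHG15 between the control lines (adjusted p = 0.0318). The numbers were the shRNA in silenced cells and only a number in controls. The shares of all probes that passed with the block are not given here, so that its counts show only how the calls moved.

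Leaving out 1 array at a time gave an SFPQ change from -1.68 to -1.33 in MDAH and from -2.27 to -1.74 in SKOV3 cells. Host probes that passed were 0 to 1 in the average and 20 to 22 between the control lines. Genes of the lists that passed were 0 to 3 in MDAH cells, 0 to 2 in the average and 23 to 40 between the control lines, and snoRNA probes 4 to 11. Signs turned for SNHG1 in MDAH (-0.049 to 0.16) and SKOV3 cells (-0.053 to 0.027), SNHG8 in SKOV3 cells (-0.071 to 0.040), SNHG7 NR_024542 in MDAH cells (-0.057 to 0.041) and SNHG7 NR_003672 in SKOV3 cells (-0.034 to 0.064). A lone array was then assumed to vary like the other groups. The shares of all probes that passed with an array left out are not given here. The counts that passed thus show only how the calls moved.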

Other observations

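The genes nearest to SNHG5 and SNHG7 in RefSeq (GRCh38.p14), among those tested, were read after the values of these hosts had been seen. Beside SNHG5, whose probes were lower in SKOV3 controls, SYNCRIP, an RNA-binding protein gene, was higher in SKOV3 controls by 1.95 (SE 0.23, adjusted p = 0.000581), and SNX14 differed by 0.21 (adjusted p = 0.318). On the other side ZNF292 was lower by a difference of -0.77 (adjusted p = 0.0161) and SMIM8 of -0.94 (adjusted p = 0.00559). Beside SNHG7, whose probes were higher in SKOV3 controls, DIPK1B was lower (-2.16, adjusted p = 0.000395) and AGPAT2 higher (0.68, adjusted p = 0.0251). On the other side of SNHG7 LOC100128593 differed by 0.24 (adjusted p = 0.430) and LCN15 was lower (-2.64, adjusted p = 0.000741). Both hosts thus had neighbours that were higher and neighbours that were lower in SKOV3 controls.

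Antisense to GAS5, GAS5-AS1 was lower in SKOV3 controls by a difference of -1.01 (SE 0.18, adjusted p = 0.00380), while GAS5 differed by -0.39 and did not pass.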
